A study of Mus musculus with 7 samples.

Results

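The comparison is of intestinal epithelium 7 days against 4 days after tamoxifen in mice from which both Mob1a and Mob1b can be deleted, so that it shows what was added between the 2 times rather than what set knockout apart from control. Its members were the 2 arrays titled with day 7 and the 2 titled with day 4, which are 4 of the 7 arrays of the series. All 4 came from male C57BL/6J mice (backcrossed for over 6 generations) that carried Villin-creERT2 together with Mob1a f/f and Mob1b f/f. These mice were injected intraperitoneally with tamoxifen at 80 mg/kg per day for 2 days from 8 weeks of age. The other arrays were a control pair, labelled wild type but described as Mob1a f/f; Mob1b f/f mice without Cre at 7 days after tamoxifen, and 1 knockout array of day 10. The study's design text gives 2 different male mice at each time, so that a replicate is a mouse, and it counts the controls as day 0, so the day of the controls is not settled. Cells were released from the proximal intestine with 2 mM EDTA in PBS, and RNA from each preparation was labelled with Cy3 and hybridised to an Agilent 1-colour microarray.

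Mob1a and Mob1b are adaptor proteins of the Hippo pathway, in which the kinases Stk3 and Stk4 and then Lats1 and Lats2 phosphorylate the coactivators YAP and TAZ and keep them out of the nucleus. When that brake is released, YAP and TAZ bind the TEAD transcription factors and switch on genes such as Ccn1 and Ccn2, and in the intestine they are known for driving a regenerative, fetal-like state at the expense of the Wnt-dependent stem cell programme. The Villin promoter restricts the Cre recombinase to the epithelium, so lymphocytes, stroma and blood cells carried along in the preparation keep both genes. The epithelium itself is renewed within days from crypt base stem cells into absorptive enterocytes and secretory goblet, Paneth, enteroendocrine and tuft cells.

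Levels are log2 signals relative to the 75th percentile of all non-control probes of the same array, and a difference is the mean level at day 7 minus the mean level at day 4, in log2 units. The scanner software marked 45.2% to 49.8% of probes on the 4 arrays as well above background and no spot as saturated, and the 75th percentile ranged from 333 to 395 signal units. A probe passed when it was well above background on both arrays of day 4 or both arrays of day 7. A gene was tested on its brightest passing probe, by the mean over all 7 arrays. It was called when limma's adjusted p (Benjamini-Hochberg over all features) was under 0.05. The control pair entered the fit only to estimate the spread between mice. A common slide, read in 1 session, held every array, but day 4 and control were in its row 1 while day 7 and day 10 were in row 2, so slide row and day cannot be told apart. The Mob1b probe used here had levels of -0.90 and -1.13 in the controls, -2.47 and -2.42 at day 4 and -2.73 and -2.48 at day 7, below both controls on all 4 knockout arrays. It was not called between the times (difference -0.16, SE 0.22, adjusted p = 0.764). Another Mob1b probe stood at -2.69 and -2.50 at day 4 and at -3.43 and -3.08 at day 7. The Mob1a probe was near background throughout, at -3.87 and -3.71 in the controls, -4.26 and -3.85 at day 4 and -3.67 and -3.41 at day 7. Whether any of these probes lies in the deleted exons is not known from the files, so they check the labels in part only. All 12 epithelial markers chosen to check the label, among them Epcam, Cdh1, Vil1 and Cdx2, were well above background on the 4 arrays and none was called, with a median difference of 0.19.

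Of 22833 features tested, 955 (4.18%) were called between day 4 and day 7, of which 445 (1.95%) were higher and 510 (2.23%) lower at day 7. Among the 13184 genes with a symbol, 323 (2.45%) rose and 383 (2.91%) fell, while the median difference over all features was -0.01. Scaling the arrays by their median instead gave 376 higher and 742 lower. Changes were large: 222 of the features that rose and 246 of those that fell differed by more than 4-fold, and the smallest difference called was 0.98. The groups of 2 arrays did not overlap for any called feature, but both day 7 arrays also lay above both day 4 arrays for 24.5% of all features and below them for 25%, so a gap between the groups alone says little here. Some called features had no signal well above background at 1 of the times, namely 106 that rose from such a level and 169 that fell to it. Their folds are given as lower bounds, with the dim level replaced on each array by the lowest signal among probes well above background there (or the probe's own, where higher). Differences in log2 units keep the dim level as measured, so for these features they are not such bounds. Because the rule admits a probe through either time, 2261 features were tested on the strength of day 4 alone and 369 on that of day 7 alone, and passing through 1 time alone favours a difference in that direction. Leaving out day 4 replicate 1, day 4 replicate 2 or day 7 replicate 1 reduced the calls to 150, 48 and 275 and leaving out day 7 replicate 2 gave 1405, with the remaining lone array assumed to vary like the other groups. Single genes were followed through the alternatives for 146 called genes, which are not all the called genes named below. All 146 kept their direction in those 4 fits, though many were no longer called. The genes Abca1, Ano1, Arhgap44, Clu, Cyp2c37, Gcnt1, Klk1, Klk1b4, Msln, Slc16a9 and Tm4sf1 were called under every alternative in which they could be tested.

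**Figure D1:**
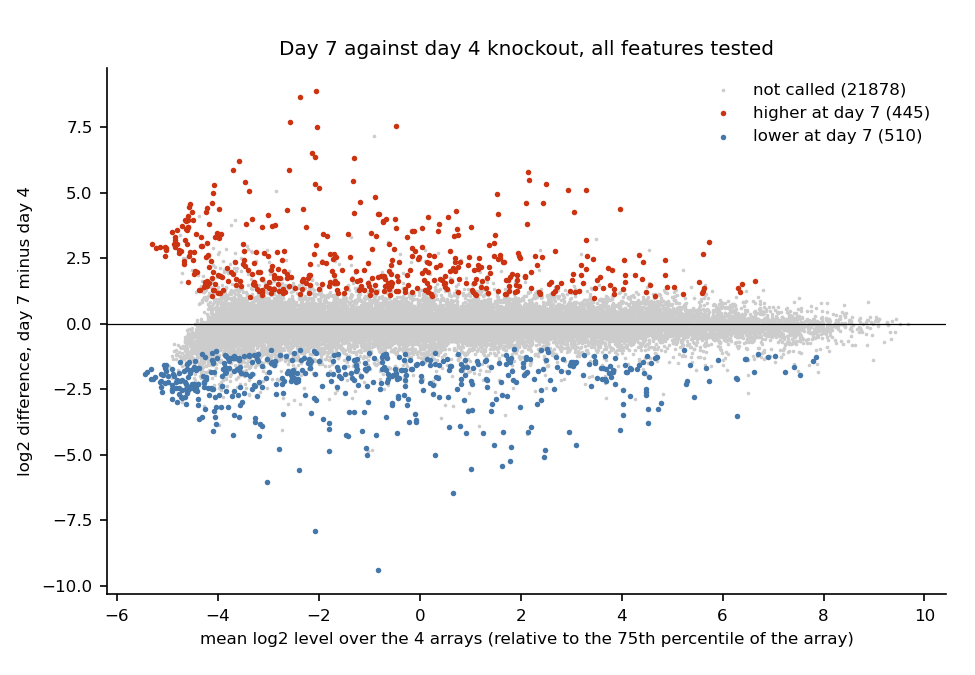
The plot shows the log2 difference, day 7 minus day 4, of every feature tested against its mean log2 level over the 4 arrays, with the 445 features called higher in red, the 510 called lower in blue and those not called in grey. The called features reach from dim to bright probes, and the points farthest from 0 are Msln above and Slc16a9 below.

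Of the 15 genes with the largest gains, some were not well above background on either day 4 array and others, such as Gcnt1, Ly6a and Ubd, were so on both. Msln encodes mesothelin, a glycoprotein of the outer cell surface, and had levels of -6.36 and -6.62 at day 4 and 2.25 and 2.50 at day 7. Both day 7 arrays were far above both day 4 arrays and close to each other, and because neither day 4 array was well above background the gain is at least 121-fold (difference 8.86, SE 0.54, adjusted p = 0.00167). Tm4sf1, a tetraspanin-related membrane protein, went from -4.50 and -4.43 to 1.74 and 1.94, at least 79.4-fold (difference 6.31, SE 0.24, adjusted p = 0.00115). The replicates of each time lay close together for this gene. Efemp1, an extracellular matrix glycoprotein of the fibulin family, was at -2.92 and -5.57 at day 4 and at 3.42 and 3.16 at day 7, with the day 4 arrays spread widely but both well below day 7 (difference 7.53, SE 0.76, adjusted p = 0.00649).

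Genes of other kinds were among the 15 largest gains too. Loxl4, a lysyl oxidase-like enzyme that crosslinks collagen, rose at least 13.8-fold from levels of -6.76 and -6.52 to -1.50 and -0.02 (difference 5.88, SE 0.45, adjusted p = 0.00308). Arhgap44, a GTPase-activating protein, rose at least 29.7-fold from -5.74 and -5.31 to -0.08 and 0.76 (difference 5.87, SE 0.33, adjusted p = 0.00129). Gcnt1, which branches mucin-type O-glycans, rose 44.6-fold from 0.02 and -1.17 to 4.95 and 4.84 (difference 5.48, SE 0.41, adjusted p = 0.00308). In all 3 genes the groups were far apart compared with the spread of the replicates. Ly6a, a surface protein that marks regenerating epithelium, rose 55.6-fold from -0.09 and -1.44 to 6.38 and 3.68, with day 7 replicate 1 clearly above replicate 2 (difference 5.80, SE 0.85, adjusted p = 0.0185). Its relatives Ly6c1 and Ly6f, chosen after their values were seen, rose with differences of 5.11 and 4.63. The Ly6 genes are similar in sequence, so which of them a probe measured is uncertain.

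Several of the largest gains were not shared by the later array. Cst9, a member of the cystatin family of protease inhibitors, had levels of -6.93 and -6.48 at day 4, 0.83 and 3.11 at day 7 and -6.80 on the day 10 array. Pla2g4c, a cytosolic phospholipase A2, had -6.66 and -6.20, then -0.56 and 3.13, and -6.55 at day 10. Slc34a2, a sodium-phosphate cotransporter, had -4.87 and -5.92, then 1.65 and 0.57, and -5.69 at day 10. All 3 were not well above background at day 4, rose at least 91.5-fold, 57-fold and 50.5-fold, and stood on the day 10 array where they had been at day 4 (limma's adjusted p for day 7 against day 4 was 0.00308, 0.0151 and 0.00334). The gasdermin C genes were low on that array too: Gsdmc, Gsdmc3, Gsdmc4 and the pseudogene Gsdmcl-ps, whose probes may share targets, rose with differences between 4.60 and 5.40, and their day 10 levels (-2.77, -2.59, -3.63 and -6.23) were far below those of day 7. Gsdmcl-ps was not well above background on either day 4 array, a rise of at least 13.8-fold. Gasdermins of this group form membrane pores after cleavage by caspases. By contrast Msln, Tm4sf1, Efemp1, Loxl4, Arhgap44 and Ly6a were higher on the day 10 array than on either day 7 array, at 8.23, 5.68, 4.61, 0.85, 1.48 and 7.12. A single array of day 10 allows no error on these levels.

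**Figure D2:**
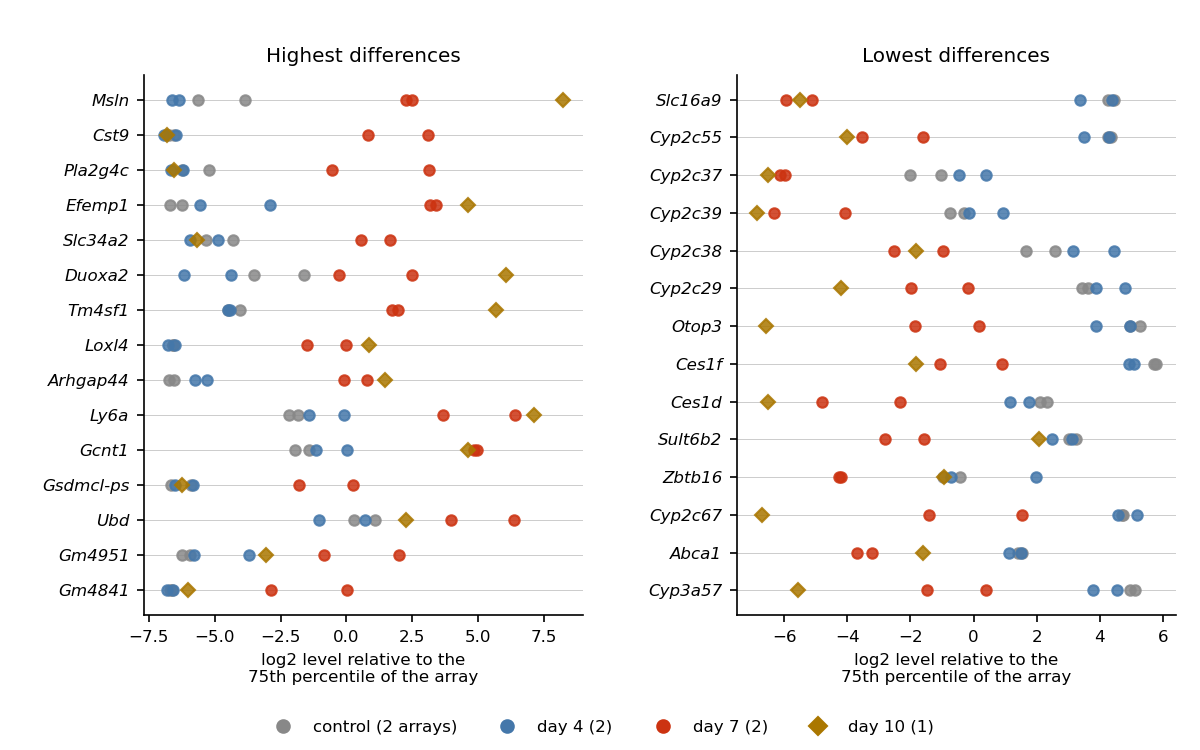
Levels (log2 relative to the array's 75th percentile) of the 15 genes with the highest and 14 of the 15 with the lowest called differences are plotted for each array, with grey for control, blue for day 4, red for day 7 and a diamond for day 10. In every gene shown the 2 red points lie apart from the 2 blue ones, while the diamond lies beyond the red points for Msln and back among the blue ones for Cst9.

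The largest losses were in transporters and metabolic enzymes of the enterocyte. Slc16a9, a monocarboxylate transporter family member, had levels of 4.27 and 4.46 in the controls, 3.36 and 4.38 at day 4 and -5.95 and -5.12 at day 7. Day 4 replicate 2 was at the control level, replicate 1 somewhat lower, and neither day 7 array was well above background, a loss of at least 255-fold (difference -9.40, SE 0.41, adjusted p = 0.00129). Abca1, which exports cholesterol and phospholipid to apolipoproteins, went from 1.13 and 1.49 to -3.68 and -3.21, with tight replicates at both times and day 4 at the control level (difference -4.76, SE 0.26, adjusted p = 0.00129). Otop3, a proton channel, went from 3.87 and 4.96 to -1.84 and 0.17 (difference -5.25, SE 0.66, adjusted p = 0.0111). Sult6b2, a sulfotransferase, went from 2.49 and 3.12 to -2.81 and -1.57 (difference -5.00, SE 0.43, adjusted p = 0.00413). Again both day 7 arrays were far below both day 4 arrays. Zbtb16, a zinc-finger transcription factor, fell at least 27.3-fold from -0.71 and 1.99 to -4.26 and -4.19, although its day 4 arrays differed widely (difference -4.87, SE 0.78, adjusted p = 0.0236). Levels on the day 10 array were back above day 7 for Sult6b2 (2.07), Zbtb16 (-0.93) and Abca1 (-1.60), but not for Otop3 (-6.57).

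Among 26 tested Hippo pathway components (of 32), 3 rose and none fell, against 2.45% of all genes that rose. The median difference was 0.52 (0.27 with the mean of each gene's probes). Ajuba, a LIM-domain protein that restrains Lats kinases, had levels of -3.02 and -3.34 in the controls, 0.61 and 0.02 at day 4 and 2.85 and 2.75 at day 7, so that it stepped up at day 4 and again, 5.58-fold, by day 7 (difference 2.48, SE 0.27, adjusted p = 0.00819). Tead1, a DNA-binding partner of YAP, went from 0.77 and 0.17 to 2.28 and 2.13 (difference 1.73, SE 0.26, adjusted p = 0.0205), and Amotl2, an angiomotin-family scaffold that binds YAP, from 0.54 and 0.53 to 1.84 and 1.46 (difference 1.12, SE 0.23, adjusted p = 0.0481). Each of the 3 genes was above its control level at day 4 already. The coactivators themselves were not called: Yap1 had a difference of -0.45 and Wwtr1, which encodes TAZ, one of 1.94 (adjusted p = 0.055). The kinases Lats1, Lats2, Stk3 and Stk4 had differences of -0.36, 0.69, 0.54 and 0.52, none of them called.

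Of 13 tested target genes of YAP and TAZ (of 23), 5 rose and none fell, against 2.45% of all genes, and the list's median difference was 0.75, or 0.45 without day 4 replicate 1. Ccn2 and Ccdc80 were tested through day 7 alone, which favours a rise, and 3 of the 5 were called when all 4 arrays had to be well above background. Ccn2, a secreted matricellular protein, had levels of -1.83 and -4.79 at day 4 and 1.71 and 1.36 at day 7, where the day 4 arrays disagreed and the day 7 arrays were close (difference 4.85, SE 0.84, adjusted p = 0.0295). Its relative Ccn1 went from -0.41 and -0.23 to 1.93 and 1.46, a 4.03-fold rise with no overlap (difference 2.01, SE 0.28, adjusted p = 0.0143). Ccdc80, a matrix protein, rose at least 2.76-fold, and Ajuba and Amotl2 belong to this list too. F3, Nt5e, Nuak2 and Crim1 had differences of 0.56, 0.54, 0.75 and 1.11 and were not called. Of the Hippo components 1, 0 and 0, and of the targets 2, 1 and 0, remained called without day 4 replicate 1, day 4 replicate 2 and day 7 replicate 1.

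TEAD factors bind a core written GGAATG, or CATTCC on the other strand. The promoters of 3 genes that rose are printed because they hold this core, in capitals, within the 250 bases before the gene's start (RefSeq, GRCm38.p6, 5′ to 3′ on the gene's strand): Ccn1 at chr3:145649986-145650235 on the minus strand, Ajuba at chr14:54577662-54577911 on the minus strand and Amotl2 at chr9:102717554-102717803 on the plus strand. Its first base lies at position -103 from the gene's start in Ccn1, at -186 and -164 in Ajuba and at -65 in Amotl2.
Ccn1: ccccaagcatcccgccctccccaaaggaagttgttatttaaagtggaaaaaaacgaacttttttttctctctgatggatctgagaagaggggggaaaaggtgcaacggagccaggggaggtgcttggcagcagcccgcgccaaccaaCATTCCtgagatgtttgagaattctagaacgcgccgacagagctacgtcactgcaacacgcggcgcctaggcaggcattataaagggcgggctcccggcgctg
Ajuba: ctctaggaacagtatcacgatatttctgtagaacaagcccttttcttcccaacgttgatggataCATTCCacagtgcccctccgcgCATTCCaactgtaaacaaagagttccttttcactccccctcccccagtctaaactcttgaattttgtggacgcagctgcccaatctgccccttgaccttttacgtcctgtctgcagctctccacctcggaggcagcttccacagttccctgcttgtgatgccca
Amotl2: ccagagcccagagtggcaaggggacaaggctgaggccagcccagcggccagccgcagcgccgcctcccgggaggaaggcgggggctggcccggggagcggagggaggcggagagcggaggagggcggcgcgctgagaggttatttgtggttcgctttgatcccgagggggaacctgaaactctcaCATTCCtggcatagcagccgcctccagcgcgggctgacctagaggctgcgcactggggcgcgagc
Counting matches on either strand from 250 bases before to 50 after the start, 5 of the 8 target genes with a promoter in the table held the core, 3 of which were called. The share was 16.6% of all genes in the table, 14.6% of the genes tested, 16.9% of the genes that rose and 17% of those that fell. A match is a description of these letters and not evidence of binding.

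Genes of the fetal-like and regenerating epithelium formed the list with the most members rising: 16 of 23 tested rose and none fell, against 2.45% of all genes that rose. The median difference was 1.82, and 3 of the 23 were tested through day 7 alone. With all 4 arrays required to be well above background, 13 of the 16 were called. Clu, a secreted chaperone that marks damage-induced revival stem cells, had levels of -1.05 and -0.63 in the controls, 2.08 and 1.48 at day 4 and 6.47 and 5.86 at day 7. It was therefore above control at day 4 and rose a further 20.9-fold (difference 4.39, SE 0.33, adjusted p = 0.00308). Anxa3, a calcium-dependent membrane-binding annexin, went from -1.60 and -1.42 to 2.97 and 1.58 and, unlike Clu, stood at its control level (-0.84 and -1.51) at day 4 (difference 3.79, SE 0.47, adjusted p = 0.0107). Plaur, the receptor of urokinase, went from -0.38 and -1.26 to 3.53 and 2.17 (difference 3.67, SE 0.59, adjusted p = 0.0244), and Anxa5 from 1.18 and 1.12 to 3.65 and 3.77, with close replicates at both times (difference 2.55, SE 0.20, adjusted p = 0.00314). Both genes were at the control level at day 4. Others that rose were Sprr1a, a cornified envelope precursor (2.76), Krt7, a simple-epithelium keratin (2.36), Ly6d (2.23), Anxa1 (2.19), Tnfrsf12a, the receptor of the cytokine TWEAK (2.05), and S100a6 (1.50), beside Msln and Ly6a above. Basp1, Cldn4, Anxa2, Krt19, Il33, F3 and Emp1 were not called, with differences between -0.56 and 0.88. Without day 4 replicate 1, day 4 replicate 2 and day 7 replicate 1, 4, 2 and 8 members of this list stayed called.

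Jun and Fos family dimers bind the AP-1 motif, written TGANTCA, which reads the same on both strands apart from its middle base. Promoters of 3 called members that hold it, in capitals, are printed as above: Sprr1a at chr3:92485882-92486131 on the minus strand, Plaur at chr7:24462233-24462482 on the plus strand and S100a11 at chr3:93520246-93520495 on the plus strand. The motif starts at -146 and -116 in Sprr1a, at -69 in Plaur and at -136 and -38 in S100a11.
Sprr1a: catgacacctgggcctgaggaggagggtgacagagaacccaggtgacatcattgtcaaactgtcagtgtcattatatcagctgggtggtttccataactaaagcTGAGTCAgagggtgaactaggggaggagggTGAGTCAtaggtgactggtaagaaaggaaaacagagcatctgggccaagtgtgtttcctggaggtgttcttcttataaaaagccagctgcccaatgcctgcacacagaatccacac
Plaur: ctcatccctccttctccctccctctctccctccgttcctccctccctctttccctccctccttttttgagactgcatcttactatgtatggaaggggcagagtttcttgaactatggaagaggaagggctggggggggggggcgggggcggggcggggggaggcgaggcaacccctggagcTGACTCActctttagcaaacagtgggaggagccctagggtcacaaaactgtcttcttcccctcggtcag
S100a11: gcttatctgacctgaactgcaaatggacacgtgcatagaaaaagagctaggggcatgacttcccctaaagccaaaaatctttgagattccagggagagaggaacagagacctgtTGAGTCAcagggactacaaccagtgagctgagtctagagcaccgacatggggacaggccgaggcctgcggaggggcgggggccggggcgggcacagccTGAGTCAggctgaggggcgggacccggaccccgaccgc
It was present in 8 of 16 members with a promoter in the table, of which 4 were called (Anxa10 is the other) and 4 were not (Anxa2, Cldn4, Emp1 and F3). Over all genes in the table the share was 8.97%, over the genes tested 6.67%, over the genes that rose 9.75% and over those that fell 9.18%. Immediate early genes are rapid targets and components of growth factor signalling, and 4 of 18 tested rose, against 2.45% of all genes. They were Egr1 (difference 2.36, SE 0.40, adjusted p = 0.0274), Nr4a1, Dusp1 and Egr2, with differences of 1.44, 1.47 and 1.10 for the last 3. The AP-1 subunits Jun, Fos and Junb had differences of 1.08, 0.63 and 0.22 and were not called. None of these 4 stayed called when either day 4 array or day 7 replicate 1 was left out.

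**Figure D3:**
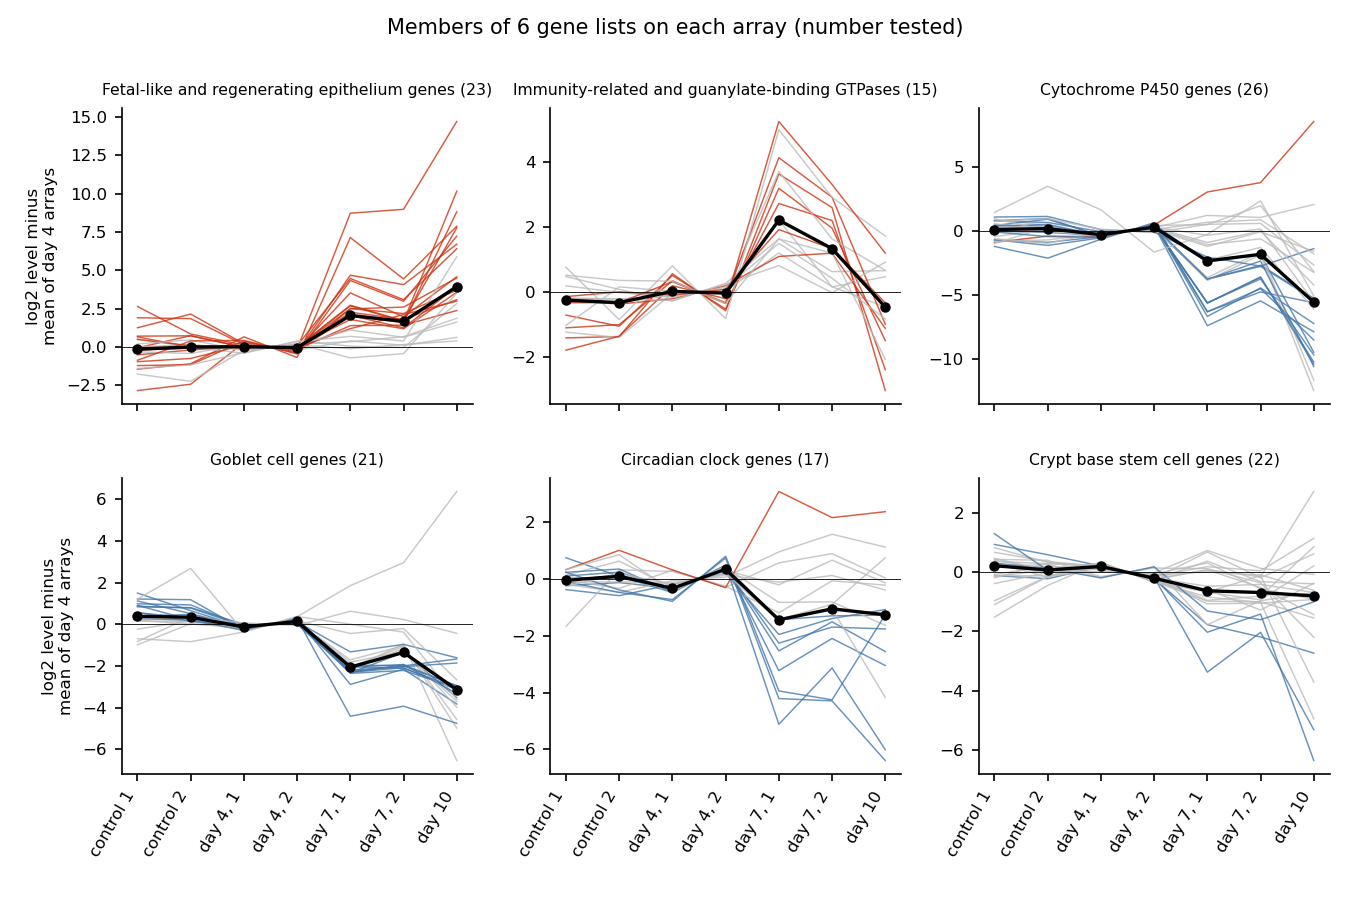
Each panel plots the tested members of 1 gene list over the 7 arrays as the log2 level minus the gene's mean over the 2 day 4 arrays, in red where called higher, blue where called lower and grey otherwise, with the list median in black; the lines join values of the same gene and imply no order within a group. The black median of the fetal-like genes is higher at day 7 and higher still on the day 10 array, that of the GTPases is highest at day 7, and those of the P450 and goblet cell genes are lower at day 7 and lower still on the day 10 array, though not every gene follows the median.

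Calls among signalling ligands and receptors are given by list, beside 2.45% of all genes that rose and 2.91% that fell. Among 13 EGF family genes Areg, the ligand amphiregulin, rose from 2.24 and 1.92 to 4.71 and 3.91 (difference 2.23, SE 0.36, adjusted p = 0.0243). Nrg4, a neuregulin ligand, fell from -0.12 and 0.69 to -3.84 and -2.35 (difference -3.38, SE 0.52, adjusted p = 0.0219). Ereg, a ligand close to Areg, had a difference of 2.46 that missed the threshold (adjusted p = 0.0684), and the receptors Egfr, Erbb2 and Erbb3 had differences of 0.89, 0.54 and 1.37. Among 10 BMP and TGF-beta ligands, Bmp2 rose from 2.02 and 2.18 to 4.44 and 3.54 (difference 1.89, SE 0.32, adjusted p = 0.0284). Bmp8b rose from 0.10 and 0.59 to 2.80 and 2.90 (difference 2.50, SE 0.27, adjusted p = 0.00802). Bmp4, Bmp7 and Tgfb1 had differences of -0.45, -0.91 and 0.28 and were not called. Of 11 receptors and antagonists, the receptor Tgfbr2 (difference 1.20, SE 0.22, adjusted p = 0.0351) and the follistatin-like inhibitor Fstl3 (difference 1.17, SE 0.22, adjusted p = 0.036) rose. None of 19 Smads and target genes was called, the lowest adjusted p being those of Smad6 (0.0523) and Skil (0.0745), and the inhibitor-of-differentiation genes Id1 and Id3 had differences of 0.59 and 0.99. In the Notch list of 16 only Nrarp, a feedback inhibitor, was called, with a fall of at least 2.81-fold. The calls of Tgfbr2 and Fstl3 were not made when the 4 arrays were fitted without the controls, and of the 7 genes called among these lists none stayed called without either day 4 array, and Bmp8b alone did without day 7 replicate 1.

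Of 22 crypt base stem cell genes tested, 4 fell and none rose, against 2.91% of all genes that fell. The median difference was -0.62 (-0.23 with the normexp background correction). Of the 22, 2 were tested through day 4 alone, which favours a fall, and Slc14a1 was among them. With all 4 arrays required to be well above background, the list had 3 lower calls. Lgr5, the R-spondin receptor that marks crypt base columnar cells, had levels of -0.34 and -0.44 in the controls, -0.04 and -0.42 at day 4 and -2.25 and -1.64 at day 7. It was still at the control level at day 4 and the groups of day 4 and day 7 did not overlap (difference -1.72, SE 0.28, adjusted p = 0.0254). Ascl2, the Wnt-induced transcription factor of these cells, went from 2.10 and 1.67 to 0.11 and -0.30 (difference -1.98, SE 0.27, adjusted p = 0.0151). Hopx, a homeodomain protein of slow-cycling crypt cells, and Slc14a1, a urea transporter, fell by 1.45 and 2.70. Axin2, a general Wnt target, had a difference of -0.44, Smoc2 of -0.93 and Sox9 of -0.88, and none of these was called. Of 17 Wnt target genes Ascl2 and Lgr5 alone fell and none rose. Among Wnt pathway genes picked after their values were seen, Wnt3, a Paneth cell ligand, Sfrp5 and Dkk4, both secreted inhibitors, fell (-2.38, -2.93 and -1.67), and Wnt5a and the receptor Fzd7 rose (1.87 and 1.96). Wnt3 was not well above background on either day 7 array, a fall of at least 1.82-fold. None of the 4 stem cell genes stayed called without day 4 replicate 1, day 4 replicate 2 or day 7 replicate 1, and 3 did without day 7 replicate 2, where Hopx was lost. None of 21 mitosis genes and none of 22 DNA replication genes was called, with Mki67 at 0.36, Top2a at 0.08 and Pcna at -0.06. The median of the mitosis list was 0.25 but turned to -0.20 without day 4 replicate 2, so no direction is given for it.

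Among the secretory lineages goblet cell genes fell in the largest number. Of 21 goblet cell genes tested 12 fell and none rose, against 2.91% of all genes, and the median difference was -1.85. Muc2, the gel-forming mucin, had levels of 5.84 and 5.60 in the controls, 5.04 and 5.54 at day 4 and 2.40 and 3.13 at day 7, a 5.75-fold fall with no overlap (difference -2.52, SE 0.32, adjusted p = 0.0112). Agr2, a disulfide isomerase needed for mucin folding, went from 6.32 and 6.51 to 4.05 and 4.20 (difference -2.29, SE 0.21, adjusted p = 0.0051), and Spink4, a secreted protease inhibitor, from 6.38 and 6.39 to 4.08 and 4.30 (difference -2.20, SE 0.21, adjusted p = 0.00546). Replicates of both genes lay close together, and both had left the control levels (7.28 and 7.19 for Agr2, 7.22 and 7.18 for Spink4) by day 4. The goblet cell transcription factors Spdef (-2.14), Foxa3 (-1.99) and Creb3l1 (-1.15) fell, as did Fcgbp, Ccl6, Ern2, Galnt12 and Bcas1. Tff3, Clca1 and Zg16 had differences of -1.56, -1.55 and -1.37 and Atoh1, the factor that sets the secretory lineage, one of -1.56 (adjusted p = 0.0973), without being called. Retnlb, a goblet cell antimicrobial, pointed up with a difference of 2.40 (adjusted p = 0.0745). In bulk preparations fewer cells of a type and less RNA per cell cannot be told apart. Without day 4 replicate 1, day 4 replicate 2 and day 7 replicate 1 the list had 2, 1 and 4 calls, and 15 without day 7 replicate 2.

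Tissue kallikreins fell in parallel with the goblet cell genes. Klk1, a serine protease listed here with goblet cells, went from 2.73 and 3.26 to -1.42 and -0.94 after controls at 4.21 and 4.17, so that a loss begun by day 4 continued (difference -4.18, SE 0.28, adjusted p = 0.00208). In the Klk1b family 8 of 9 tested genes fell, and Klk1b4 and Klk1b26 (chosen after their values were seen) fell by 4.17 and 4.16. Their sequences are close, so the family may be reported in part through shared targets. Of 12 Paneth cell genes 3 fell, against 2.91% of all genes. They were Clps (-2.10), Habp2 (-1.94) and the alpha-defensin Defa21, which went from 5.02 and 4.98 to 3.11 and 3.20 (difference -1.84, SE 0.20, adjusted p = 0.00855). Lyz1, Mmp7 and Ang4, products of mature Paneth cells, had differences of -1.07, -0.57 and -0.28 and were not called. The differences of all 12 Paneth cell genes lay below 0, with a median of -1.09. Among 25 enteroendocrine genes Neurog3, the factor that commits progenitors to this lineage, went from 0.96 and 0.96 to -1.93 and -1.69 (difference -2.78, SE 0.23, adjusted p = 0.00334) and Tac1, a tachykinin precursor, fell by 1.61, while the hormones Cck, Gip, Sst and Gcg were not called (-0.55, -1.33, -0.50 and -0.51). Of 12 tuft cell genes Ptgs1, a prostaglandin synthase, rose from -0.15 and 0.37 to 2.08 and 2.31, whereas Dclk1, Trpm5 and Gfi1b had differences of -0.32, -0.79 and -0.54 with no call. Differences lay below 0 for 24 of the 25 enteroendocrine genes (median -0.81) and 11 of the 12 tuft cell genes (median -0.80). Those medians were -0.42 and -0.29 without day 7 replicate 1. In the 2 lists 5 and 3 genes were tested through day 4 alone, which favours a fall. The 3 Paneth calls became 0, 0 and 1 without day 4 replicate 1, day 4 replicate 2 and day 7 replicate 1, and Ptgs1 was not called in any of these fits.

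**Figure D4:**
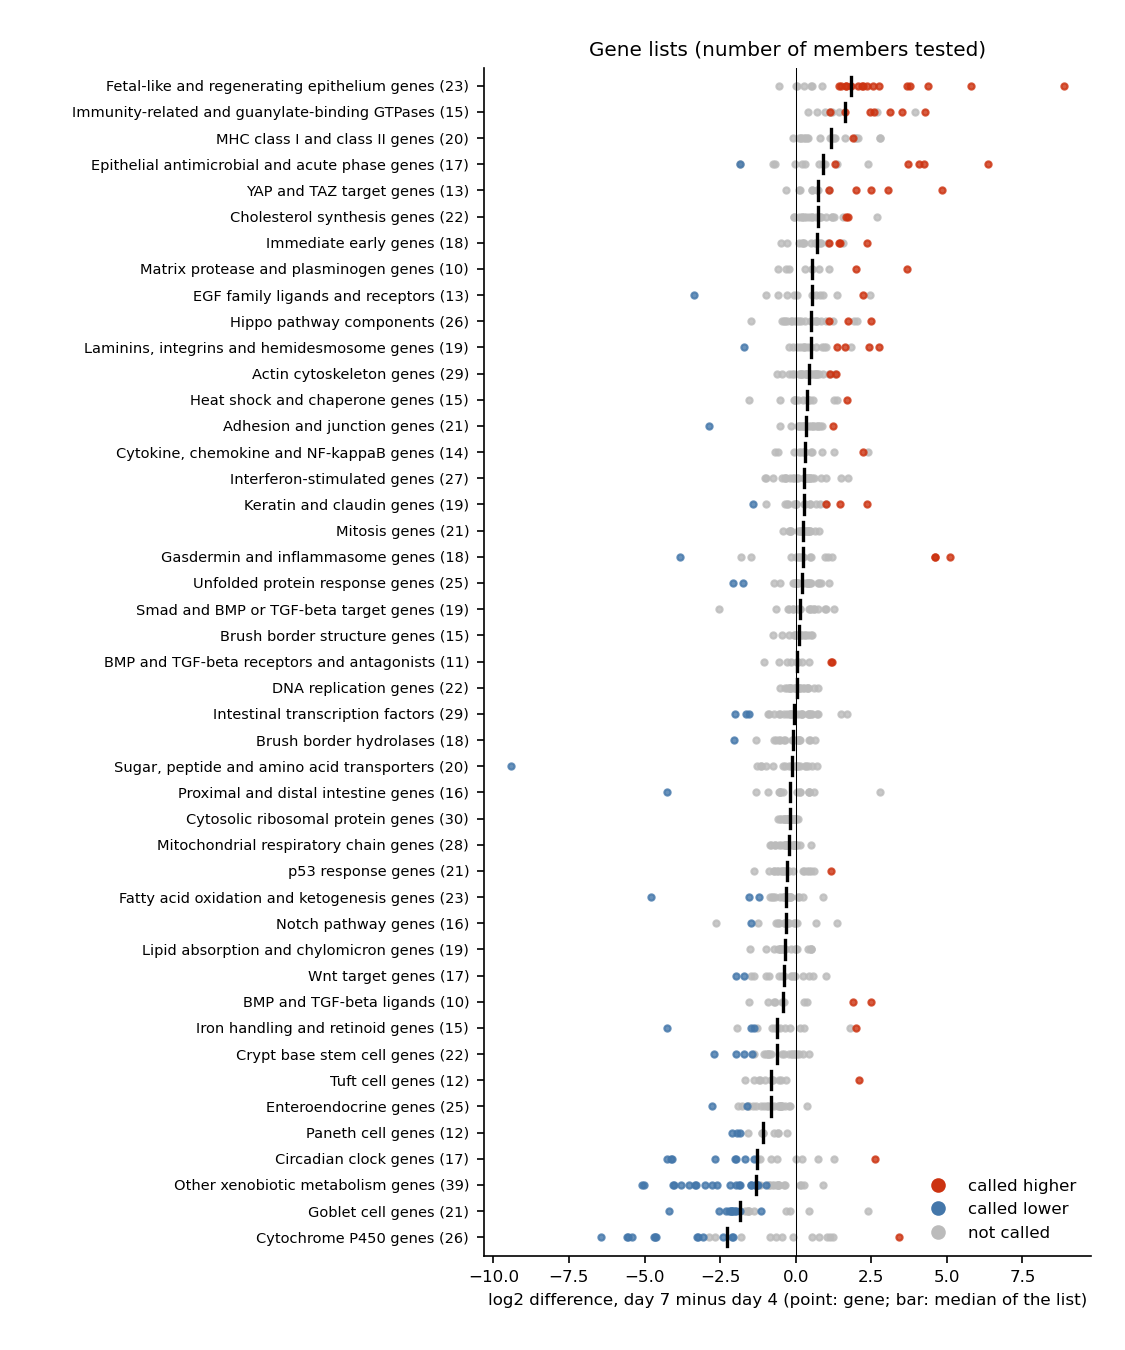
Log2 differences, day 7 minus day 4, are plotted for each tested member of the gene lists (number tested in brackets), in red where called higher, blue where called lower and grey where not called, with a black bar at the list median. The lists run from the fetal-like genes, with a median of 1.82, to the cytochrome P450 genes, with a median of -2.26.

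Enzymes of drug metabolism fell in large numbers. Of 26 tested genes in the cytochrome P450 list 13 fell and 1, Cyp2d34, rose, against 2.91% and 2.45% of all genes. The median difference was -2.26, and 11 of the 13 were called with all 4 arrays required to be well above background. In the whole Cyp2c family, of which Cyp2c37 and Cyp2c67 are not in that list and whose enzymes oxidise drugs and arachidonic acid, 10 of 12 tested genes fell. Cyp2c55 had levels of 4.35 and 4.27 in the controls, 3.50 and 4.29 at day 4 and -3.54 and -1.59 at day 7, a 87.7-fold fall (difference -6.46, SE 0.61, adjusted p = 0.00539). Cyp2c38 went from 3.15 and 4.45 to -2.53 and -0.98 (difference -5.55, SE 0.64, adjusted p = 0.00917) and Cyp2c65 from 5.92 and 6.39 to 2.39 and 3.38 (difference -3.27, SE 0.36, adjusted p = 0.00855). In these 3 genes day 4 overlapped or exceeded the controls, and day 7 replicate 1 was lower than replicate 2. Cyp2c37, Cyp2c29, Cyp2c39 and Cyp2c67 fell by 6.03, 5.43, 5.58 and 4.81, while Cyp2c70 was not called. Neither day 7 array was well above background for Cyp2c37, a fall of at least 17.3-fold. Of 8 Cyp3a genes 3 fell, the largest being Cyp3a57 from 3.77 and 4.53 to -1.48 and 0.39 (difference -4.70, SE 0.59, adjusted p = 0.011), and Cyp2b10 fell by 2.06. Close relatives within Cyp2c and Cyp3a can share probe targets, so the loss of each single member is less certain than that of the family. Cyp2d34 rose from -4.10 and -3.18 to -0.58 and 0.15 while 3 other Cyp2d genes fell. Without day 4 replicate 1, day 4 replicate 2 and day 7 replicate 1, 2, 0 and 11 of the 13 genes of the list stayed called as lower, while Cyp2c37, outside it, was called in all 3 fits.

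Conjugating and hydrolysing enzymes followed: 22 of 39 other xenobiotic genes fell and none rose, against 2.91% of all genes that fell. The median difference was -1.30. All 5 tested Ces1 carboxylesterases fell, for example Ces1f from 4.92 and 5.07 to -1.07 and 0.90 (difference -5.08, SE 0.57, adjusted p = 0.00909). Ces1d went from 1.15 and 1.77 to -4.80 and -2.32 (difference -5.02, SE 0.72, adjusted p = 0.0175). Of 7 Gstm glutathione transferases 6 fell, and Gstm1 went from 7.27 and 7.46 in the controls to 5.61 and 6.38 at day 4 and 1.55 and 2.31 at day 7, a loss in steps (difference -4.06, SE 0.36, adjusted p = 0.00437). All 3 Gsta genes and 4 of 6 Ugt2b glucuronosyltransferases fell, Ugt2b5 by 3.34. The xenobiotic receptor Nr1i3 fell (-1.25) and Nr1i2, its relative PXR, had a difference of -0.89 without a call. Without day 4 replicate 1, day 4 replicate 2 and day 7 replicate 1, 3, 0 and 9 of these genes stayed called.

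HNF4 receptors bind sites related to CAAAGTCCA, and that string is rare in promoters. The promoters of 2 P450 genes that fell are printed because they hold it, in capitals, in the same format: Cyp2c65 at chr19:39060756-39061005 on the plus strand and Cyp2c68 at chr19:39741102-39741351 on the minus strand, starting at -116 and -77.
Cyp2c65: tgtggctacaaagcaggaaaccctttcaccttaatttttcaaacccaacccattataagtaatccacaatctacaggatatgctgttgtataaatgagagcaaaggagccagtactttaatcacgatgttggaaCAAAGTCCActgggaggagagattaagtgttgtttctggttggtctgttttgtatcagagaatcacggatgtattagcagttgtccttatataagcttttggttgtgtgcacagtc
Cyp2c68: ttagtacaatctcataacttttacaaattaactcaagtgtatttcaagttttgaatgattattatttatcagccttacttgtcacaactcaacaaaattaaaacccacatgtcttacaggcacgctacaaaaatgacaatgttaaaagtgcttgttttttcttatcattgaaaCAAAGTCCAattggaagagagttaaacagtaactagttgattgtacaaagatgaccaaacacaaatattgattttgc
It was found for 4 of the 24 P450 genes with a promoter in the table, 2 of them called (the other 2 are Cyp3a11 and Cyp3a16, which were not called), against 0.555% of all genes in the table, 0.606% of the genes tested and 1.7% of the genes that fell. The Cyp2c and Cyp3a promoters share descent and are not independent cases. Hnf4a and Hnf4g themselves had differences of 0.44 and -0.20 and were not called. Of 29 intestinal transcription factors 3 fell, Foxa3, Foxa2 (difference -1.66, SE 0.25, adjusted p = 0.0188) and Ppara (difference -1.56, SE 0.30, adjusted p = 0.042), while Cdx2, Gata4 and Klf5 had differences of 0.16, 0.44 and -0.20.

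Calls in the absorptive machinery are given by list, beside 2.91% of all genes that fell and 2.45% that rose. Of 18 brush border hydrolases only Tmprss15, the enteropeptidase that activates trypsinogen, fell, from 4.49 and 5.12 to 2.64 and 2.89 (difference -2.04, SE 0.33, adjusted p = 0.0254), and Sis, Lct, Alpi and Anpep had differences of -0.38, -0.52, 0.10 and 0.46. None of 15 brush border structure genes and none of 19 lipid absorption genes was called, with Vil1 at 0.21, Fabp1 at -0.40 and Apoa4 at -0.51, and in the transporter list of 20 Slc16a9 alone was called. Iron and retinoid handling included Cybrd1, the duodenal ferric reductase, which went from 0.54 and 0.80 to -4.24 and -2.94 (difference -4.26, SE 0.49, adjusted p = 0.00917), the transferrin receptor Tfrc and the carotene oxygenase Bco1, which fell, and the haem oxygenase Hmox1, which rose (difference 2.00, SE 0.36, adjusted p = 0.0322). With the mean of its probes in place of the brightest, Hmox1 had a difference of 1.05 and was not called. Of 23 fatty acid oxidation and ketogenesis genes 3 fell, among them Ppara and Acaa2, and Cpt1a and Acadm were not called (-0.40 and 0.09). In the other direction, 2 of 22 cholesterol synthesis genes rose, Sqle from 3.83 and 3.25 to 5.21 and 5.32 (difference 1.72, SE 0.26, adjusted p = 0.019) and Cyp51 (1.66), and 20 of the 22 differences lay above 0. None of 28 respiratory chain genes and none of 30 ribosomal protein genes was called. When day 4 replicate 1, day 4 replicate 2 or day 7 replicate 1 was left out, Tmprss15, Tfrc, Bco1, Ppara, Acaa2, Sqle and Cyp51 were not called in any of the 3 fits, and Tfrc, Acaa2 and Cyp51 were also not called when the 4 arrays were fitted alone. Cybrd1 was lost without either day 4 array, and Hmox1 without either day 4 array or day 7 replicate 2.

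Of 17 tested genes of the circadian clock, 8 fell and 1 rose, against 2.91% and 2.45% of all genes, with a median difference of -1.27. Per3, Ciart and Cry1 were tested through day 4 alone, which favours a fall, and 6 of the 8 were called when all 4 arrays had to be well above background. Dbp, a PAR-domain transcription factor and direct output of the clock, had levels of 5.25 and 5.37 in the controls, 4.55 and 5.49 at day 4 and -0.10 and 1.88 at day 7 (difference -4.13, SE 0.63, adjusted p = 0.0209). Its relative Hlf went from 0.52 and 1.99 to -2.96 and -3.04 (difference -4.25, SE 0.46, adjusted p = 0.00794). Tef, another of the family, went from 5.17 and 5.92 to 3.01 and 4.03 (difference -2.02, SE 0.40, adjusted p = 0.0451). Day 4 was at the control level in all 3 genes and day 7 lay below both. The repressors Per1, Per2 and Cry2 fell by 1.68, 1.98 and 1.37, and Per3 and Ciart, also repressors of the clock, at least 3.95-fold and 4.21-fold. Nfil3, which represses the sites that Dbp activates, moved in the other direction, from -0.81 and -1.44 to 1.95 and 1.03 (difference 2.61, SE 0.41, adjusted p = 0.0223). The activators Arntl and Npas2 had differences of 0.72 and 1.26 and the receptors Nr1d1 and Nr1d2 of 0.22 and -0.82, none of them called. The hour at which the mice were killed is not given in the sources used here, so time of day and day after tamoxifen cannot be told apart for these genes. Fkbp5, a glucocorticoid-induced cochaperone picked after its values were seen, fell from 3.54 and 4.21 to 0.98 and 0.90 (difference -2.93, SE 0.28, adjusted p = 0.00546). Without day 4 replicate 1, day 4 replicate 2 and day 7 replicate 1, 2, 1 and 1 clock genes stayed called as lower, and Nfil3 was not.

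Clock and its partner Bmal1 (Arntl) bind the E-box CACGTG, a motif that was searched after the values were seen. Among 14 clock genes whose promoter was listed, 4 held it, of which 3 were called (Ciart, Per1 and Tef) and Cry1 was not, against 8.09% of all genes in the table, 11.5% of the genes tested and 11.9% of those that fell. Ciart is printed as the clock promoter with the most copies, at chr3:95882229-95882478 on the minus strand, where the E-boxes in capitals start at -116, -58 and -44.
Ciart: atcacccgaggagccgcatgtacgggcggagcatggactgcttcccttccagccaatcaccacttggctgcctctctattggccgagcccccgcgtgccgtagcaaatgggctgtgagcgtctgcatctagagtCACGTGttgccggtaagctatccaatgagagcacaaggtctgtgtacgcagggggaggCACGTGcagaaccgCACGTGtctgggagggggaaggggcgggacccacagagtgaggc

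Interferon-inducible GTPases rose by day 7. Of 15 genes in the list of immunity-related and guanylate-binding GTPases and their regulators, 7 rose and none fell, against 2.45% of all genes that rose. The median difference was 1.63. Tgtp2, a T cell-specific GTPase family member, had levels of 0.59 and 0.59 in the controls, 1.23 and 0.59 at day 4, 6.16 and 4.22 at day 7 and 2.11 on the day 10 array (difference 4.28, SE 0.59, adjusted p = 0.0146). Gbp7, a guanylate-binding protein, went from -1.20 and -1.59 to 2.74 and 1.52 and was at -2.38 at day 10 (difference 3.53, SE 0.42, adjusted p = 0.0097), and Igtp went from 4.73 and 3.59 to 7.80 and 6.76 and was at 1.14 (difference 3.12, SE 0.46, adjusted p = 0.0188). In all 3 genes day 7 replicate 1 was the highest array, replicate 2 was next and the day 10 array was below both. Irgm1, Irgm2, Gbp6 and the transcription factor Irf1, which induces many of them, rose with differences of 2.58, 2.46, 1.15 and 1.63. Tgtp1, whose sequence is nearly that of Tgtp2, had a difference of 3.96 and Iigp1 of 2.67, neither called. The predicted GTPases Gm4841 and Gm4951, which are outside this list, were among the 15 largest gains, rising from -6.83 and -6.59 to 0.02 and -2.88 and from -3.69 and -5.80 to 2.01 and -0.84. Without day 4 replicate 1, day 4 replicate 2 and day 7 replicate 1 the list had 1, 0 and 2 calls, and 10 without day 7 replicate 2.

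Related genes of the response to interferon-gamma moved in part. Cxcl10, a chemokine for T cells, rose from -0.51 and 0.20 to 2.21 and 1.96 (difference 2.24, SE 0.32, adjusted p = 0.017), Ubd, a ubiquitin-like modifier, from 0.71 and -1.06 to 6.35 and 3.98 (difference 5.34, SE 0.86, adjusted p = 0.0241), and Socs1 and Cd274, a feedback inhibitor and the ligand PD-L1 picked after their values were seen, by differences of 4.17 and 3.32. Of 20 MHC genes Ciita, the activator of class II genes, rose at least 3.34-fold and was the only one called, beside 2.45% of all genes that rose. With all 4 arrays required to be well above background, no MHC gene was called. Ciita was tested through day 7 alone, which favours a rise. Its targets Cd74, H2-Aa, H2-Ab1 and H2-DMb1 had differences of 2.79, 1.62, 1.25 and 2.80 and were not called. H2-Aa, for example, had levels of 1.63 and 0.31 at day 4 and 3.89 and 1.28 at day 7, which overlapped. None of 27 genes typical of the type I interferon response was called, with a median difference of 0.28, Isg15 at 0.60 and Ifit1 at -0.31. T cell markers were measured in the same preparations, and 1 of 18, Gzmb, rose, against 2.45% of all genes. It went from 3.43 and 2.94 to 4.57 and 4.43 (difference 1.31, SE 0.24, adjusted p = 0.0362). That call was not made when the 4 arrays were fitted without the controls. Without the filter on dim probes, Cxcl10, Ubd, Ciita and Gzmb were not called. The summed linear signal of the 18 T cell markers was 301 and 290.1 times the 75th percentile at day 4, 417 and 376 at day 7, and 23.2 on the day 10 array. The part of T cells in the GTPase result was not tested.

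The interferon response element core, a pair of GAAA with 2 bases of any kind between them (TTTC on the other strand), also searched after the values were seen, was held by 8 of 10 genes of the GTPase list with a promoter in the table, against 3.99% of all genes, 3.73% of the genes tested, 8.47% of those that rose and 4.08% of those that fell. Of the 8 genes 5 were called (Gbp7, Igtp, Irgm1, Irgm2 and Tgtp2) and 3 were not (Gbp3, Gbp5 and Tgtp1). The Igtp and Irgm2 promoters are near copies of each other around the core, and Tgtp1 is nearly Tgtp2 in sequence. Matches in such related genes are not independent cases. The promoters of the called genes are shown for the place of the core, in capitals, close to the start: Igtp at chr11:58199306-58199555 (plus strand), Gbp7 at chr3:142530086-142530335 (plus), Irgm1 at chr11:48871421-48871670 (minus), Irgm2 at chr11:58214727-58214976 (plus) and Tgtp2 at chr11:49064213-49064462 (minus). It begins at -34, -53, -64 and -70 in Igtp, Gbp7, Irgm2 and Tgtp2 and, as an overlapping pair, at -30 and -24 in Irgm1.
Igtp: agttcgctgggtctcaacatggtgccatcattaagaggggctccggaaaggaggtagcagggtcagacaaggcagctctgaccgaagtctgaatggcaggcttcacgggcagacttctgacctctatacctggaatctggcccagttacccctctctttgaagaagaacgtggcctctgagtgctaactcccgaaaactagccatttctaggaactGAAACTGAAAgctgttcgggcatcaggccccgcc
Gbp7: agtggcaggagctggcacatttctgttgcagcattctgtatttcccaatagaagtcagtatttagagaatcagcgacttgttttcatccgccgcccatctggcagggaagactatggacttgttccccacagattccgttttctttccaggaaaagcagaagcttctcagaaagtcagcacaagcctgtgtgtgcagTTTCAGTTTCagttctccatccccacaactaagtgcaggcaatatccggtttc
Irgm1: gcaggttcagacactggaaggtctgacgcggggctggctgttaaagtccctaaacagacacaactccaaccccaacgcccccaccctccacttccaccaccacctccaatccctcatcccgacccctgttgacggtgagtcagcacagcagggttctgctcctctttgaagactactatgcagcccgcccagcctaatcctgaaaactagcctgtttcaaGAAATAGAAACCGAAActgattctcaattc
Irgm2: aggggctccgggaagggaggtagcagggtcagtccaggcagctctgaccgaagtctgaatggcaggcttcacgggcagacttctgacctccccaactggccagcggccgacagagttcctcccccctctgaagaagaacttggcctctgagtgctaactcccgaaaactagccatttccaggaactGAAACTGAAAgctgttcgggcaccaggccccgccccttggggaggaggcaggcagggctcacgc
Tgtp2: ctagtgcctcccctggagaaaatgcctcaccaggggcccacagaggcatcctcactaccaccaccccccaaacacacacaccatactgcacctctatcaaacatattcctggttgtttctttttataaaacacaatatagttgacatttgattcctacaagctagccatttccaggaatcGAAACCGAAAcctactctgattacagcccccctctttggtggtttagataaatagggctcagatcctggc

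Epithelial defence genes rose in part. Of 17 antimicrobial and acute phase genes 5 rose and 1 fell, against 2.45% and 2.91% of all genes. Of the 17, 4 were tested through day 7 alone, and 2 of the 5 were called when all 4 arrays had to be well above background. Duoxa2, which matures the hydrogen peroxide-producing oxidase Duox2, went from -4.37 and -6.15 to -0.28 and 2.49, with wide replicates at both times and no overlap (difference 6.36, SE 1.06, adjusted p = 0.0266). Nos2, the inducible nitric oxide synthase, went from -1.24 and -1.70 to 3.15 and 2.06 (difference 4.07, SE 0.39, adjusted p = 0.00562) and the serum amyloid Saa2 from -3.98 and -4.25 to -0.94 and 0.12 (difference 3.71, SE 0.37, adjusted p = 0.00603). S100a9, a calprotectin subunit that neutrophils also carry, rose at least 5.45-fold, and Saa1 rose with a difference of 1.30. Reg3a fell from 4.46 and 5.05 to 2.69 and 3.12 (difference -1.86, SE 0.28, adjusted p = 0.0206), and Reg3b, Reg3g and Lcn2 had differences of 0.78, 0.99 and -0.01 without a call. Leap2, a secreted peptide that antagonises ghrelin, picked after its values were seen, fell from 5.78 and 6.77 to 2.66 and 3.87. In the gasdermin and inflammasome list the pore-forming Gsdma2 fell at least 7.38-fold while Gsdmc, Gsdmc3 and Gsdmc4 rose. The 5 antimicrobial genes called higher became 1, 0 and 3 without day 4 replicate 1, day 4 replicate 2 and day 7 replicate 1.

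Laminin chains and adhesion genes changed in part. Of 19 laminin, integrin and hemidesmosome genes 4 rose and 1 fell, against 2.45% and 2.91% of all genes. Lama5 went from 1.24 and 1.38 to 4.17 and 3.96 (difference 2.75, SE 0.24, adjusted p = 0.00437) and Lama3, another laminin alpha chain, from 0.26 and 0.56 to 2.01 and 2.08 (difference 1.63, SE 0.22, adjusted p = 0.0131). Both laminin chains had day 7 arrays well clear of day 4. Itgb6, the integrin subunit that activates latent TGF-beta, rose with a difference of 1.37, and Lamb1 fell from -1.13 and -1.53 to -2.83 and -3.23 (difference -1.70, SE 0.26, adjusted p = 0.0207). Adam8, a surface metalloprotease, rose (2.01), as did the keratins Krt7, Krt80 and Krt23 (2.36, 1.47 and 0.99), the actin-linked proteins Vcl and Cnn2 (1.13 and 1.33) and the tight junction scaffold Tjp1 (1.23). Krt15 and the desmosomal plakophilin Pkp1 fell (-1.41 and -2.86). The calls of Adam8, Krt23, Vcl, Cnn2 and Tjp1 were not made when the 4 arrays were fitted without the controls. The main keratins of the gut, Krt8, Krt19 and Krt20, had differences of 0.01, 0.27 and -0.29. Ano1, a calcium-activated chloride channel, Edn1, the peptide endothelin, and Thbs1, a matricellular protein, all picked after their values were seen, rose with differences of 4.31, 3.90 and 3.30. Thbs1 was not well above background on either day 4 array, a rise of at least 4.41-fold. Of the 4 laminin and integrin genes called higher 1, 0 and 2 stayed called without day 4 replicate 1, day 4 replicate 2 and day 7 replicate 1.

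Calls in the stress lists are given beside 2.45% of all genes that rose and 2.91% that fell. Of 21 p53 response genes only Fas, a death receptor, rose (difference 1.18, SE 0.24, adjusted p = 0.0462), while Cdkn1a, Mdm2 and Bax had differences of 0.51, -0.21 and -0.39. Hspa1a was the only chaperone called among 15, from -4.27 and -3.68 to -2.31 and -2.25 (difference 1.69, SE 0.30, adjusted p = 0.0306). Of 25 unfolded protein response genes the goblet cell sensor Ern2 fell, from -0.64 and -0.40 to -2.56 and -2.64 (difference -2.08, SE 0.24, adjusted p = 0.00926), as did Herpud1 (-1.75), and Hspa5, Ddit3 and Atf4 were not called (0.42, 0.03 and 0.46). Fas, Hspa1a, Ern2 and Herpud1 were not called when day 4 replicate 1, day 4 replicate 2 or day 7 replicate 1 was left out, and Fas was also not called when the 4 arrays were fitted alone.

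Markers of cells other than epithelium were compared because EDTA preparations carry some of them. B cell genes were mostly not detected, with 3 of 11 tested and none called, as were fibroblast genes (4 of 13 tested) and smooth muscle genes (2 of 9). Of the tested fibroblast markers Dcn fell and Pdpn rose, of 7 endothelial markers Esam fell and Tie1 rose, and of 15 macrophage and neutrophil markers Mrc1 rose, each near background at the lower time. The summed linear signal of the macrophage and neutrophil list was 175 and 214 times the 75th percentile at day 4 and 173 and 261 at day 7, which overlap, and that of the fibroblast list was 0.48 and 0.45 against 0.33 and 0.39. Globin genes of blood cells were the exception, since Hba-a1 had levels of 2.72 and 4.16 at day 4 and -2.37 and 2.27 at day 7, with day 7 replicate 1 far below the other 3 arrays and no call (difference -3.49, SE 1.35, adjusted p = 0.231). Tubb3, a neuronal tubulin, rose from -4.63 and -4.96 to 0.18 and -2.33, again with day 7 replicate 1 standing apart. The part of these cells in the results above was not tested.

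**Figure D5:**
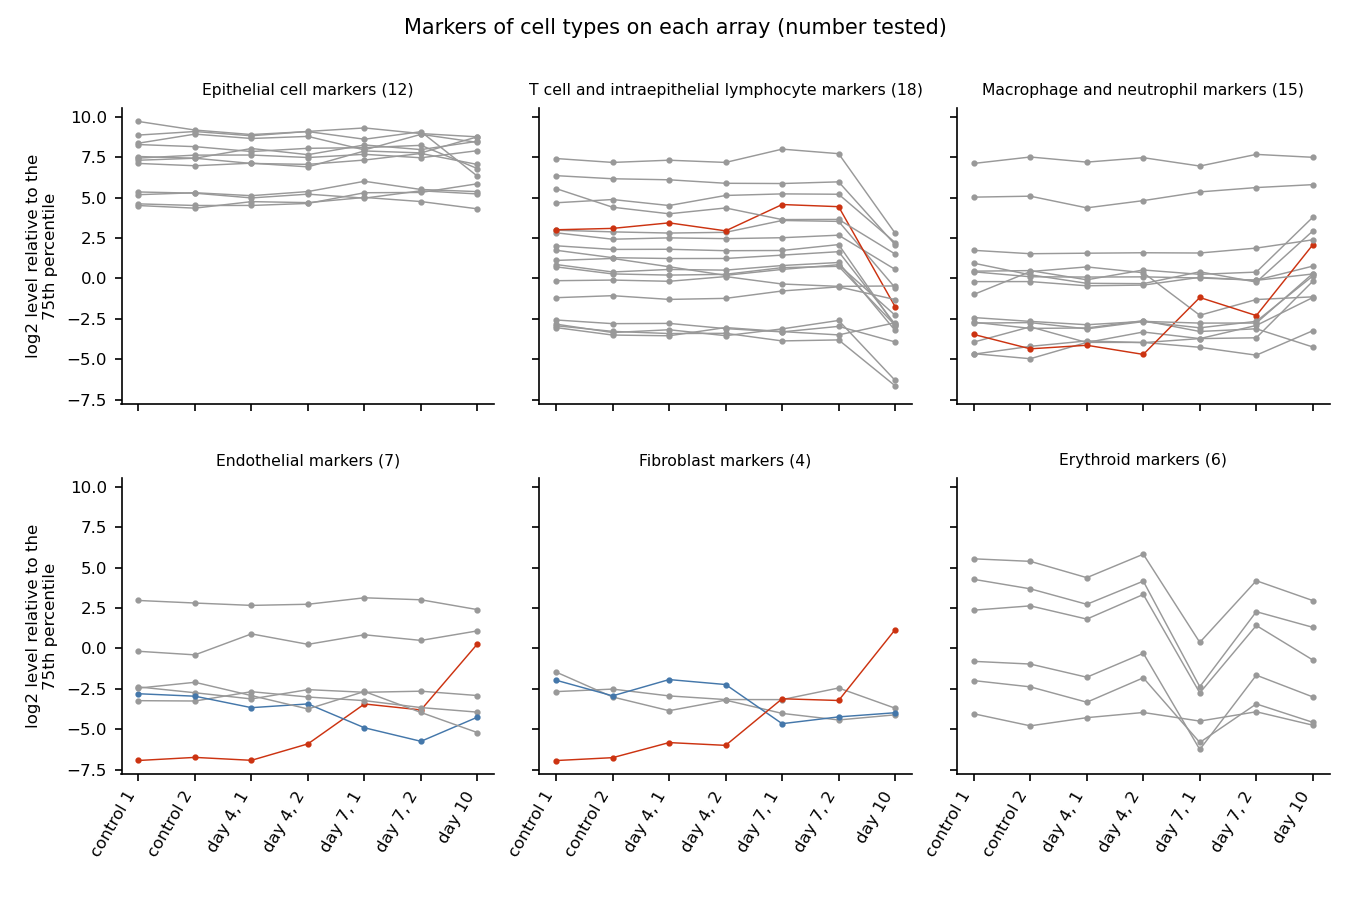
Levels (log2 relative to the array's 75th percentile) of the tested markers of 6 cell types are plotted for each of the 7 arrays, in red where called higher and blue where called lower at day 7 and in grey otherwise; lines join values of the same gene and imply no order within a group. Epithelial markers stay high on all arrays, T cell markers drop on the day 10 array only, and the globin genes are lowest on day 7 replicate 1.

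Set against the controls, the genes called between the times had left the control range by day 4 in part only. Of the 323 genes that rose, 319 were above both controls on both day 7 arrays, which took part in choosing them. On both day 4 arrays 123 of them (38.1%) were above both controls, and 66 (20.4%) were below. The day 4 arrays took part in that choice too, which favours low day 4 levels among genes that rose and high ones among genes that fell. Of the 383 genes that fell, all 383 were below both controls on both day 7 arrays, 201 (52.5%) were so on both day 4 arrays, and 30 were above the controls at day 4. Clu, Ajuba and Amotl2 are examples of genes already above control at day 4, and Anxa3, Anxa5 and Lama3 of genes that were not. Over all genes with a symbol tested, 24% were above and 33.5% below both controls on both day 7 arrays, and 12.3% above and 26.8% below on both day 4 arrays. The day 10 array entered neither the filter nor the contrast, though it counted in the choice of each gene's brightest probe. It lay above both controls for 271 (83.9%) of the genes that rose, against 37.7% of all genes. It lay below both for 351 (91.6%) of those that fell, against 51.3%. Among the genes that rose, 44 lay below both controls at day 10, including the GTPase genes Igtp and Irgm2, the gasdermins Gsdmc, Gsdmc3 and Gsdmc4, and Fas. The day 7 and day 4 arrays, the controls and day 10 share a slide. On it day 10 was in row 2 with day 7, while day 4 and the controls were in row 1. Slide row and day therefore cannot be told apart in these shares. A single array of day 10 cannot show the spread of that time.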

How the data were processed

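RNA of intestinal epithelial cells was measured on 1-colour arrays, and 4 of the 7 (day 4 and day 7, 2 mice each) were compared. Per the file headers, Agilent Feature Extraction 11.5.1.1 gave a background-subtracted, detrended intensity for each spot (array design 028005), not normalised between arrays. The table of values that the authors deposited held the same intensity within 0.1%, linear and not centred, with column medians from 15.2 to 30.5. Control and outlier spots were left out, spots of 1 probe averaged, and log2 taken relative to each array's 75th percentile. Of 55681 probes, 27509 had 1 gene symbol, 0 several and 28172 none through RefSeq accessions (GRCm38.p6), and the brightest passing probe stood for a gene. limma 3.58.1 in R 4.3.3 was fitted to all 7 arrays with a mean for each group, and p was adjusted (Benjamini-Hochberg) over 22833 features and called under 0.05. The script was tested on simulated data. The number of arrays limits precision.

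Genes named are the 15 highest and 15 lowest, up to 4 called per list and direction (or, where none was called, up to 2 of lowest p), list members given for completeness, and genes said to be chosen after their values were seen; some genes that this rule takes in are not reported here. The members and the lists were chosen with earlier results of these data known, and lists share genes. Alternatives covered scaling, background correction, the filter on dim probes, probe choice, the deposited table, the arrays fitted and a replicate block.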

Additional observations from a re-analysis of the deposited data

How the results depend on the processing

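Leaving out 1 array at a time gave 48 to 1405 calls, of which 34 to 482 were higher and 14 to 923 lower at day 7. The normexp correction, run after seeing the files on median spot signals because they hold no mean signals, gave 526 calls (265 higher, 261 lower). Without the filter on dim probes there were 116 calls (69 higher, 47 lower), and the median difference of all features was 0.26 in place of -0.01. Requiring all 4 arrays well above background gave 327 lower calls. Scaling by the median turned the share of higher calls from 46.6% to 33.6% (376 higher, 742 lower). The labels share only a replicate number between the groups: deviations of replicate 1 from the group mean correlated at 0.33 between day 4 and day 7, 0.11 between day 7 and control and -0.00 between day 4 and control, and the replicate block gave 1243 calls (557 higher, 686 lower). The differences of 3 genes turned sign, none of them called. Cdc6 stood at -0.0217 with the mean of its probes, Jchain ranged from -0.17 (without day 4 replicate 1) to 0.96 (without day 4 replicate 2), with -0.11 without day 7 replicate 2, and Smtn ranged from -0.000806 (without day 7 replicate 1) to 0.61 (without day 7 replicate 2). The causes were not tested. With 2 mice per time, differences under about 1 log2 unit were not called, and 1470 features differed by over 2-fold without a call.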

Other observations

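Mast cell genes, chosen after their values were seen, were called in part. Mcpt4, a chymase, went from levels of -0.52 and -1.07 to 1.82 and 2.12 (difference 2.76, SE 0.35, adjusted p = 0.0114, limma), and Mcpt1 and Mcpt2, proteases of mucosal mast cells, had differences of 2.80 and 3.12 without a call. Cpa3, the mast cell carboxypeptidase, rose at least 3.31-fold. The part of these cells in the other results was not tested.

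Other gene families were counted by their symbols, beside 2.45% of all genes that rose and 2.91% that fell. Of 7 tested Apol genes, whose products bind lipid and some of which respond to interferon, 4 rose, with Apol10a highest at 2.66. Of 11 Serpinb protease inhibitors 2 rose, as did 2 of 3 caveola-coating Cavin genes. Of 6 Nat8 acetyltransferases 3 fell, of 5 Akr1c ketosteroid reductases 3 fell, and all 3 tested Cyp4a fatty acid hydroxylases fell. Of 11 Slc5a cotransporters Slc5a8 rose at least 3.31-fold and 2 fell, Slc5a4b by 2.23. Members of these families can share probe targets.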
